A study of Mus musculus with 6 samples.

Results

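Glucose uptake, glycolysis and the response to low oxygen were examined through 39 genes, of which 25 are glycolytic (glucose and lactate carriers, enzymes and the kinases that steer the flux) and 14 are the hypoxia-inducible factor Hif1a, its regulators and other genes known as HIF targets. A probe was taken as a member when the platform annotation gives its gene one of these symbols, with Ero1l matched under its current name, Ero1a. This found 69 of the 45281 probes, for 36 of the 39 genes among 19057 named genes, and 3 genes (Hk2, Gpi1 and Eno1) had no probe under their names. The arrays come from 3 KO mice, labelled as knock-out for N-Me and given tamoxifen at 3 mg/kg, and from 3 WT mice, labelled as wild type for N-Me and given the corn oil vehicle alone. N-Me is an enhancer of the proto-oncogene Myc to which the NOTCH1 protein binds. All 6 mice are of the C57 BL6 strain, received an intraperitoneal injection and were processed at 40 h. The series describes a conditional knockout, but the labels used here give no recombinase, age, sex or tissue. Genotype and tamoxifen differ together between the groups, so their effects cannot be told apart.

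Glycolysis splits glucose into pyruvate in the cytosol. Its upper steps spend ATP to phosphorylate and cleave the sugar, and its lower steps make ATP and NADH. HIF1A is a transcription factor that prolyl hydroxylases of the EGLN family mark for destruction when oxygen is present. When oxygen is low, HIF1A pairs with ARNT at the DNA core ACGTG or its variant GCGTG and raises most glycolytic genes along with genes of blood vessel growth, mitophagy and pH control. MYC with MAX binds the E-box CACGTG, and several glycolytic genes, such as Ldha, are known as targets of both factors.

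Promoters of 6 members are shown because they hold, or lack, these letters and belong to genes that passed the test. They are the 250 bases before the start of the RefSeq transcript (GRCm38.p6), read 5′ to 3′ on the strand of the gene, and capitals mark every such core and E-box on either strand. The Pgk1 promoter is chrX:106186850-106187099 on the plus strand, and the Ldha promoter, the more upstream of 2 in the table, is chr7:46845554-46845803 on the plus strand. The Egln1 promoter is chr8:124949255-124949504 and the Ankrd37 promoter chr8:45999851-46000100, both on the minus strand. The P4ha1 promoter is chr10:59323046-59323295 and the Car12 promoter chr9:66713436-66713685, both on the plus strand.
Pgk1: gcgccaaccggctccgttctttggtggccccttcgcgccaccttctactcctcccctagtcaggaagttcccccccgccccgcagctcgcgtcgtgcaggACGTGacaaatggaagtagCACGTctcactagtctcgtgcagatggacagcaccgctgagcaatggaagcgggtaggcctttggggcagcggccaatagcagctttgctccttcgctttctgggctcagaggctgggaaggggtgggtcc
Ldha: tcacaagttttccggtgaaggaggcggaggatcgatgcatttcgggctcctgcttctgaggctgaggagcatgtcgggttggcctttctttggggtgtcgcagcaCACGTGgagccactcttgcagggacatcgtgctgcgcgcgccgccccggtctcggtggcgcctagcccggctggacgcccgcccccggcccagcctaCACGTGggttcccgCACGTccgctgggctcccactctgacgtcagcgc
Egln1: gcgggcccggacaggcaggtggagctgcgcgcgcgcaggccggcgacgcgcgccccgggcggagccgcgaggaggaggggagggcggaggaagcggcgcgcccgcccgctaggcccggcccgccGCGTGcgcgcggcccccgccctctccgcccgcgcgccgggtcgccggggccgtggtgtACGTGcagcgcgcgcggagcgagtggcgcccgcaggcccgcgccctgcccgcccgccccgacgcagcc
Ankrd37: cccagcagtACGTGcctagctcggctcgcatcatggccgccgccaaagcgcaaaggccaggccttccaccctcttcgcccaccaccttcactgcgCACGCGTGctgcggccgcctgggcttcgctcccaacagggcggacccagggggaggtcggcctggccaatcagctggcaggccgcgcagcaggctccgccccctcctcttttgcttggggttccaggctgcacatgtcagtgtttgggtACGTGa
P4ha1: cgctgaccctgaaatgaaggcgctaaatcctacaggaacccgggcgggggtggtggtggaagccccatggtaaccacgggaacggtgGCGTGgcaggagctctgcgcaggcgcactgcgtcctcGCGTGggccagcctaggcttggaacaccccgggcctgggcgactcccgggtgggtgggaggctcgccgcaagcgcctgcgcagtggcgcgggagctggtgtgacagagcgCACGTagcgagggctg
Car12: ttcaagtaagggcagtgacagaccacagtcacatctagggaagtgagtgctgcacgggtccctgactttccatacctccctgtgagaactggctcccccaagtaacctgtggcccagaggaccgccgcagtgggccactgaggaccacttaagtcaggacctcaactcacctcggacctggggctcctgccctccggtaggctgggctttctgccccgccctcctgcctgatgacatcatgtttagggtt
Pgk1 has ACGTG 150 bases before the start and again, on the other strand, 131 bases before it. Ldha has the E-box CACGTG at 145 and at 48 bases before the start, with a further ACGTG on the other strand at 34. Car12 has none of these letters in the 250 bases shown.

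Over the members, 36 had at least 1 RefSeq promoter window, each of 300 bases (250 before the start and 50 after it), and 53 windows were searched on both strands. Either HIF core (ACGTG or its variant GCGTG) was present in 77.4% of these windows, against 61.3% of the 10612 windows of all genes tested and 43.8% of the 32851 windows in the table. The E-box, whose letters also contain the first core, was in 7 of the 53 member windows and in 1063 of the 10612 windows of genes tested. It was in 1 of the 17 windows of members that fell (Ldha), and in 1 of the 7 windows of members that rose. For members tested that did not pass it was in 2 of 17. Among the members, either core was in 76.5% of the 17 windows of genes that fell, in 71.4% of the 7 windows of genes that rose and in 76.5% of the 17 windows of genes that did not pass. By window, the members that fell thus held the cores as often as those that did not pass, but some genes have several windows. Counted by gene, either core was in 12 of 14 members that fell, 3 of 3 that rose and 10 of 10 that did not pass. Among the 8303 genes tested with a window, the share was 67.1%. In all 15 members fell, and Ndrg1, which was 1 of them, had no window. The 53 member windows include those of members that were not tested.

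The arrays measured biotin-labelled total RNA, and values are normalized log2 signals. On each array 18215 to 19486 probes were detected at p under 0.05, and correlations across genes were 0.984 to 0.991 among KO arrays, 0.990 to 0.993 among WT arrays and 0.950 to 0.969 between groups. Myc read 7.42, 6.95 and 7.11 on the KO arrays against 8.95, 8.75 and 9.04 on the WT arrays. It fell by 1.75 ± 0.16 (SE) on the log2 scale (limma, adjusted p = 0.000406), and the array measures its transcript, not the enhancer. No tissue is labelled. Transcripts of T cells (Cd3e, Cd3d, Thy1) and of erythroid cells (Hba-a1, Slc4a1) were detected on all arrays. Because the samples are bulk RNA, fewer cells of a type and less RNA per cell cannot be told apart. With 3 arrays a group, precision is limited.

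In KO mice, 6 member enzymes from triose phosphate isomerase to pyruvate kinase were lower, and so were Ldha and Pdk1. Hk1 and Pfkm, of earlier steps, were higher. Of 18 glycolytic genes tested, 8 fell and 2 rose (limma, adjusted p under 0.05), which is 44.4% and 11.1%. Over all 10209 genes tested, 17.1% fell and 19.7% rose, or 36.9% in either direction. The median log2 fold change of the 18 was -0.34, and that of all genes 0.0011. KO arrays lay below every WT array for 9 of the 18 genes and above for 3, against 24.4% and 26.1% of all genes, or 50.5% either way. The 6 tested members from triose phosphate isomerase to pyruvate kinase fell, as did both tested members that decide the fate of pyruvate, Ldha and Pdk1. Outside the members, tested genes of the same stretch did not fall: Pklr, a pyruvate kinase, rose by 0.92 (adjusted p = 0.00123), and the mutase gene Pgam2 was at 0.49 (adjusted p = 0.0744). Of the 6 tested members from hexokinase to aldolase, 0 fell and 2 rose by their brightest probe, although a further probe of Pfkp fell. The division before triose phosphate isomerase was drawn after the values were seen and has no test of its own, nor has the contrast between its sides. A division by the steps that make ATP and NADH would put Tpi1, which fell, with the upper steps.

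**Figure D1:**
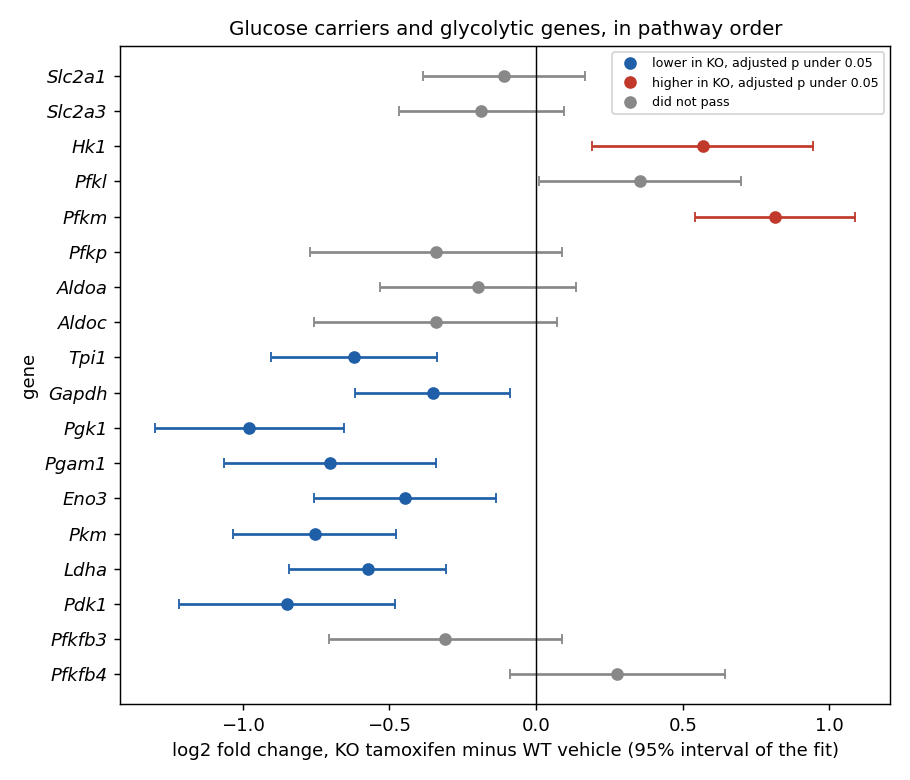
Log2 fold change (KO tamoxifen minus WT vehicle, horizontal axis) of the 18 tested glycolytic genes, listed in pathway order down the page. Points are estimates of the fit and bars their 95% intervals. Genes from Tpi1 to Pdk1 all lie below 0, from -0.98 to -0.35, whereas Hk1 and Pfkm lie above it.

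Glucose enters by the carriers Slc2a1 (GLUT1) and Slc2a3 (GLUT3). Slc2a1 read 9.80, 9.69 and 9.67 on KO arrays and 9.92, 9.71 and 9.86 on WT arrays, which overlap. Its log2 fold change was -0.11 (95% interval -0.39 to 0.17, adjusted p = 0.514). Slc2a3 read 10.91, 10.89 and 10.70 on KO arrays and 11.03, 10.93 and 11.10 on WT arrays. All 3 KO arrays lay below the WT arrays, but the difference of -0.19 (95% interval -0.47 to 0.10) did not pass (adjusted p = 0.270).

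Hexokinase phosphorylates glucose to hold it in the cell. Hk1, the form present in most tissues and in red cells, read 9.10, 8.99 and 8.97 on KO arrays and 8.56, 8.69 and 8.11 on WT arrays. It was 1.48-fold higher in KO, with a log2 fold change of 0.57 ± 0.17 (SE, adjusted p = 0.0271). A second Hk1 probe gave 0.57 as well (adjusted p = 0.0200 over all kept probes). The call for Hk1 was narrow: without any 1 KO array, WT replicate 1 or WT replicate 3 its adjusted p was 0.0539 to 0.0762, and 0.0578 when arrays were scaled to a common median.

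Phosphofructokinase commits sugar to glycolysis, and its muscle, liver and platelet forms are encoded by Pfkm, Pfkl and Pfkp. Of the 3 genes only Pfkm passed the test by its brightest probe. Pfkm read 11.35, 11.54 and 11.46 on KO arrays and 10.65, 10.70 and 10.56 on WT arrays, with no overlap. It rose by 0.82 ± 0.12 (SE) on the log2 scale, or 1.76-fold (adjusted p = 0.00190), and its further probes also rose, by 1.01 and 0.56. Pfkl read 10.73, 10.45 and 10.69 on KO arrays and 10.36, 10.42 and 10.03 on WT arrays. Its difference of 0.35 did not pass (adjusted p = 0.0981), and a second, dimmer probe gave -0.45 (adjusted p = 0.0885), so the direction of Pfkl depends on the probe. With the mean of its probes Pfkl was at -0.05.

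Pfkp read 10.17, 9.42 and 9.76 on KO arrays and 10.16, 9.9998 and 10.20 on WT arrays, and KO replicate 1 lay within the WT range. The difference was -0.34 (adjusted p = 0.191), but -0.53 (adjusted p = 0.0270) without KO replicate 1. A second Pfkp probe fell, at -0.64 (adjusted p = 0.0374). The log2 signal of Pfkm minus that of Pfkp changed by 1.16 between groups, with array values of 1.18, 2.12 and 1.70 in KO and 0.49, 0.70 and 0.35 in WT. A 2-sided exact permutation test gave p = 0.1, which is also the lowest p that 3 KO and 3 WT arrays can reach. The comparison of these forms was chosen after their values were seen.

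Aldolase, which cleaves fructose bisphosphate, did not pass in either form tested. Aldoa, the main form outside liver, read 10.83, 10.69 and 11.11 on KO arrays and 11.13, 11.16 and 10.93 on WT arrays, a difference of -0.20 (95% interval -0.53 to 0.14, adjusted p = 0.325). Aldoc, best known from brain, differed by -0.34 (95% interval -0.76 to 0.07, adjusted p = 0.172).

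Tpi1, which interconverts the triose phosphates, comes just before the steps that make ATP and NADH. Tpi1 read 12.49, 12.31 and 12.59 on KO arrays and 13.12, 13.08 and 13.04 on WT arrays. It fell by 0.62 ± 0.12 (SE, adjusted p = 0.00616), and its further probes gave -0.67 and -1.51, both past the threshold. Gapdh, the NADH-forming dehydrogenase often used to normalize other assays, read 13.35, 13.43 and 13.41 on KO arrays and 13.78, 13.80 and 13.66 on WT arrays. Groups did not overlap, but the difference was small, at -0.35 ± 0.12 (SE, adjusted p = 0.0422). Without any 1 of the 6 arrays Gapdh was no longer called (adjusted p 0.0680 to 0.123). Scaled to a common median Gapdh was at -0.53. Gapdh has many processed pseudogenes in the mouse, and copies could share its probe.

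Pgk1, the first ATP-forming enzyme of the pathway, had the largest fall among the tested glycolytic members by their brightest probe, but not by the mean of probes, where Pgk1 was at -0.67, Tpi1 at -0.93, Pkm at -0.90, Pdk1 at -0.89 and Pgam1 at -0.86. It read 11.14, 11.51 and 11.37 on KO arrays and 12.41, 12.36 and 12.19 on WT arrays, a gap several times the spread within either group. The log2 fold change was -0.98 ± 0.14 (SE), or 1.97-fold lower in KO (adjusted p = 0.00178). A dimmer Pgk1 probe was at -0.36 and did not pass (adjusted p = 0.103). The Pgk1 promoter shown above holds ACGTG on both strands.

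Pgam1, phosphoglycerate mutase, read 9.37, 9.01 and 9.31 on KO arrays and 10.14, 9.71 and 9.94 on WT arrays. It fell by 0.70 ± 0.16 (SE, adjusted p = 0.0100), and its second probe was at -1.01 (adjusted p = 0.0127). Eno3, the enolase form best known from muscle, read 7.72, 7.80 and 7.96 on KO arrays and 8.31, 8.41 and 8.09 on WT arrays. It fell by 0.45 ± 0.14 (SE, adjusted p = 0.0320). Eno3 was not called without KO replicate 1 or 2 or WT replicate 1 or 2 (adjusted p 0.0670 to 0.0970), nor when arrays were scaled to a common median (0.0631). Muscle markers were mostly below detection: 6 of 8 (Acta1, Myh4, Myh1, Ckm, Tnnt3 and Tnnc2) had no kept probe, Mylpf was at 0.16 (adjusted p = 0.493) and Atp2a1 fell by 0.89.

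Pkm, pyruvate kinase of most non-liver tissues, makes pyruvate in the last step. It read 12.47, 12.46 and 12.65 on KO arrays and 13.29, 13.20 and 13.35 on WT arrays. All KO arrays lay clearly below, and Pkm fell by 0.75 ± 0.12 (SE), or 1.69-fold (adjusted p = 0.00263). A second Pkm probe, detected on only 2 of the 3 KO arrays, was at -1.04 (adjusted p = 0.00410). The probes do not separate the splice forms by name in the annotation used.

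Ldha, which turns pyruvate into lactate, read 13.50, 13.41 and 13.48 on KO arrays and 13.93, 14.06 and 14.12 on WT arrays. It fell by 0.57 ± 0.12 (SE), or 1.49-fold (adjusted p = 0.00675). Pdk1, a kinase that shuts off pyruvate dehydrogenase, read 9.97, 9.59 and 9.71 on KO arrays and 10.40, 10.55 and 10.86 on WT arrays. It fell by 0.85 ± 0.16 (SE), or 1.80-fold (adjusted p = 0.00496), and its second probe was at -0.93 (adjusted p = 0.00266). Both genes showed no overlap between groups.

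The remaining glycolytic members did not pass or were too dim to test. Pfkfb3 and Pfkfb4 make or break down fructose 2,6-bisphosphate, an activator of phosphofructokinase. Pfkfb3 was detected on 1 of 3 KO arrays and all 3 WT arrays and differed by -0.31 (adjusted p = 0.199). Pfkfb4 was at 0.28 (95% interval -0.09 to 0.64, adjusted p = 0.210). Ldhb, Pdk2 and the lactate carriers Slc16a1 (MCT1) and Slc16a3 (MCT4) had no probe detected on at least 3 arrays and were not tested. The single probe of Ldhb was detected on 1 of 3 KO arrays and 0 of 3 WT arrays, and that of Slc16a1 on 0 of 3 KO arrays and 1 of 3 WT arrays. None of the 3 Slc16a3 probes was detected on any array.

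**Figure D2:**
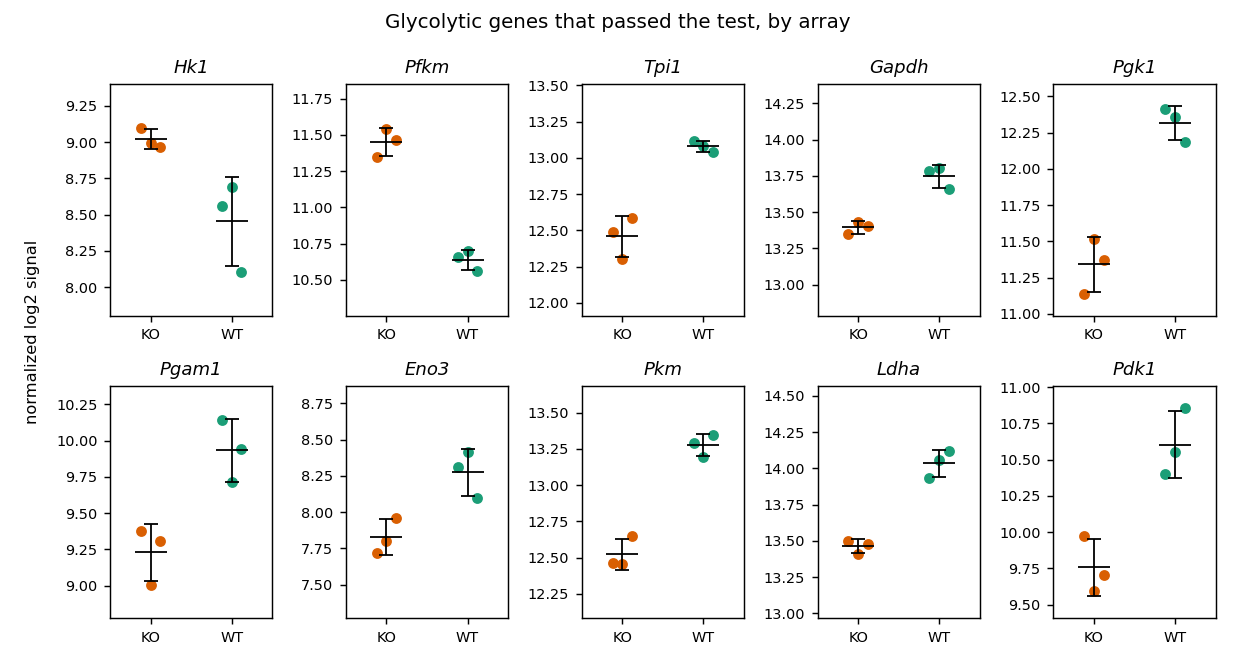
Normalized log2 signal (vertical axes) of the 10 glycolytic genes that passed the test, with KO arrays left and WT arrays right in each panel. Points are single arrays, and bars show the mean and SD of 3. Hk1 and Pfkm are higher in KO and the other 8 genes lower, with no overlap between groups in any panel.

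Signals of other cell types differed between the same groups. Of 7 tested erythroid markers, 5 rose and 0 fell, and their summed normalized signal was 85674 to 99076 on KO arrays against 66236 to 74914 on WT arrays. Epb42 was not detected, and Hbb-b1 and Ahsp had no probe under their names. Hk1, Pfkm and Bnip3l are also expressed in red cell precursors, and the part of these cells in their values was not tested. Of 9 T lineage markers 3 fell and 0 rose, with log2 fold changes of -2.80 for Rag1, -1.94 for Ptcra and -1.25 for Dntt. The summed signal overlapped, at 48110 to 49434 on KO arrays and 46607 to 50859 on WT arrays. Bright genes such as Thy1 (mean 13.95 in KO and 13.83 in WT) make up most of this sum. It therefore cannot show a fall of dimmer genes such as Rag1 (6.11 and 8.91). The T lineage markers Cd5 and Cd8a were not detected, and Lck had no probe under its name. Of 8 myeloid markers tested 4 rose, with summed signals of 10603 to 22459 on KO arrays and 7647 to 9725 on WT arrays, and of 5 B lineage markers 1 rose, with 1095 to 2131 on KO arrays and 537 to 884 on WT arrays. The part of these cells in the glycolytic values was not tested.

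The HIF pathway genes and other HIF targets changed mostly downward as well, although HIF1A's own transcript did not pass. Of 12 tested, 7 fell and 1 rose, which is 58.3% and 8.33% beside 17.1% and 19.7% over all genes. Their median log2 fold change was -0.67, and -0.31 without background correction. KO arrays lay below every WT array for 7 of the 12 genes and above for 2, against 24.4% below and 26.1% above over all genes.

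**Figure D3:**
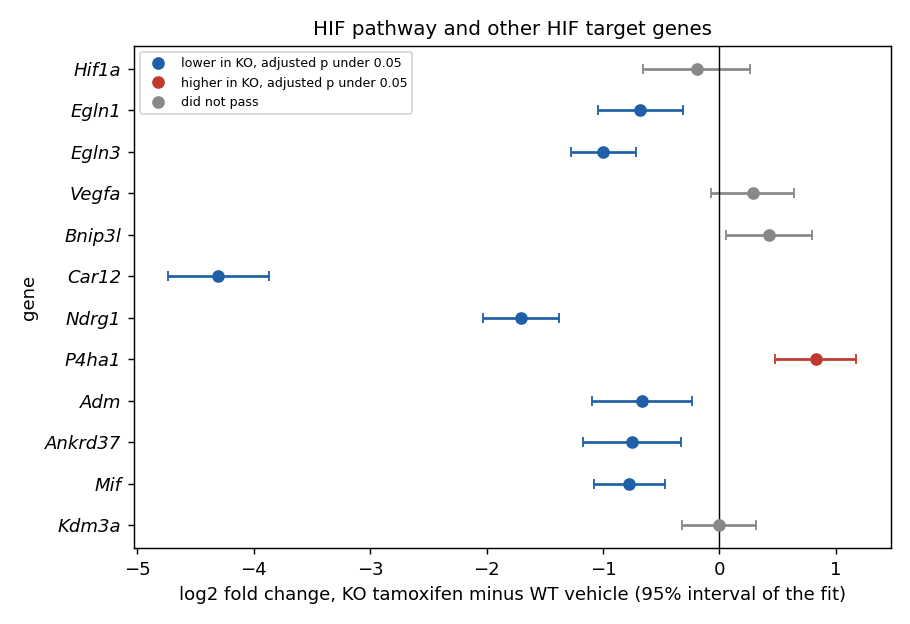
Log2 fold change (KO tamoxifen minus WT vehicle, horizontal axis) of the 12 tested HIF pathway and target genes. Points are estimates of the fit and bars their 95% intervals. Car12 lies farthest below 0, at -4.30, then Ndrg1 at -1.70, and P4ha1 lies above 0 at 0.83.

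Hif1a encodes the oxygen-regulated subunit itself, which is controlled mainly as a protein. It read 8.30, 7.75 and 7.81 on KO arrays and 7.86, 8.12 and 8.47 on WT arrays, which overlap widely. The difference was -0.20 (95% interval -0.66 to 0.26, adjusted p = 0.478). Both of its hydroxylase genes among the members fell. Egln2, a gene of the same family outside the members, was at -0.07 and did not pass (limma, adjusted p = 0.826). Egln1 (PHD2), the main oxygen sensor, read 6.87, 6.68 and 6.58 on KO arrays and 7.49, 7.10 and 7.57 on WT arrays. It fell by 0.68 ± 0.16 (SE, adjusted p = 0.0115), by 0.38 without background correction, and its further probes were at -0.71 (adjusted p = 0.00642) and -0.38 (adjusted p = 0.227).

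Egln3 (PHD3), a hydroxylase gene that HIF itself induces, read 9.87, 10.02 and 9.996 on KO arrays and 10.99, 11.05 and 10.83 on WT arrays. Every KO array was lower than every WT array by a wide margin, and Egln3 fell by 0.996 ± 0.12 (SE), or 1.99-fold (adjusted p = 0.00117). Further Egln3 probes were at -0.92 (adjusted p = 0.00398) and -0.44 (adjusted p = 0.127), the last being dim.

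Car12, a membrane carbonic anhydrase that handles acid at the cell surface, had the largest fall among all 10209 genes. It read 5.57, 5.26 and 4.86 on KO arrays and 9.45, 9.44 and 9.72 on WT arrays. The KO signal was near background, with detection on 2 of the 3 KO arrays, so the size of the fall depends on the background correction. Car12 fell by 4.30 ± 0.19 (SE, adjusted p = 1.80e-05) and, without that correction, was at -2.62. A second Car12 probe was not detected on any KO array and was at least 3.61-fold lower in KO (adjusted p = 0.000227). Its mean log2 signal was 4.67 in KO and 7.14 in WT.

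Ndrg1, a stress gene strongly induced by hypoxia, lies on the same chromosome as Myc, as does Pfkm, which rose. The part of location was not tested. Ndrg1 read 8.98, 8.68 and 8.78 on KO arrays and 10.59, 10.33 and 10.64 on WT arrays. It fell by 1.70 ± 0.14 (SE), or 3.26-fold (adjusted p = 0.000313), and a second probe was at -1.95 (adjusted p = 0.000438). Mif, a secreted cytokine and HIF target, read 13.93, 13.67 and 13.75 on KO arrays and 14.60, 14.66 and 14.41 on WT arrays. It fell by 0.77 ± 0.13 (SE, adjusted p = 0.00323), with its second probe at -0.99. Neither gene's groups overlapped.

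Ankrd37, a small ankyrin protein gene known for induction by HIF1A, read 8.49, 8.94 and 8.54 on KO arrays and 9.67, 9.11 and 9.45 on WT arrays. The gap between the closest arrays was narrow, and Ankrd37 fell by 0.75 ± 0.19 (SE, adjusted p = 0.0139). Ankrd37 was not called without KO replicate 3, WT replicate 1 or WT replicate 3 (adjusted p 0.0505 to 0.0538). Adm, which encodes the vasodilator adrenomedullin, was dim and detected on 1 of 3 KO arrays. It read 5.15, 5.24 and 5.03 on KO arrays and 5.75, 5.46 and 6.20 on WT arrays and fell by 0.66 ± 0.19 (SE, adjusted p = 0.0244). Adm was not called without KO replicate 3, WT replicate 1 or WT replicate 3 (adjusted p 0.0600 to 0.0786), nor without background correction, where it was at -0.23.

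P4ha1, the collagen prolyl hydroxylase subunit, was the HIF target that rose. It read 6.73, 6.48 and 6.79 on KO arrays and 5.82, 5.64 and 6.06 on WT arrays, a rise of 0.83 ± 0.15 (SE, adjusted p = 0.00438). The rise was not shared by a second P4ha1 probe, at -0.20 (adjusted p = 0.382). With the mean of its probes P4ha1 was at 0.31 and not called (adjusted p = 0.119), and without background correction it was at 0.35. Markers of stroma and endothelium, cells rich in this enzyme, were also higher: 6 of 9 tested rose and 0 fell, with summed signals of 5890 to 8018 on KO arrays against 3421 to 4261 on WT arrays. Their part in the P4ha1 value was not tested.

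Other HIF targets did not pass. Vegfa, the angiogenic growth factor gene, read 8.37, 8.44 and 8.05 on KO arrays and 8.22, 7.87 and 7.92 on WT arrays, a difference of 0.29 (95% interval -0.07 to 0.64, adjusted p = 0.183). Bnip3l (NIX), a mitophagy receptor needed to clear mitochondria from maturing red cells, read 12.85, 12.96 and 13.28 on KO arrays and 12.38, 12.66 and 12.77 on WT arrays. Its groups did not overlap, and its difference of 0.43 missed the threshold (adjusted p = 0.0688). Bnip3l passed under 7 of 16 alternatives, among them those without KO replicate 1 (0.51, adjusted p = 0.0447) and without background correction (0.42, adjusted p = 0.0362). Kdm3a, a histone demethylase gene, was at -0.0020 (95% interval -0.32 to 0.32), with further probes at 0.10 and -0.17. Bnip3 and Ero1a, an oxidase of the endoplasmic reticulum, had no probe detected on any array and were not tested.

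**Figure D4:**
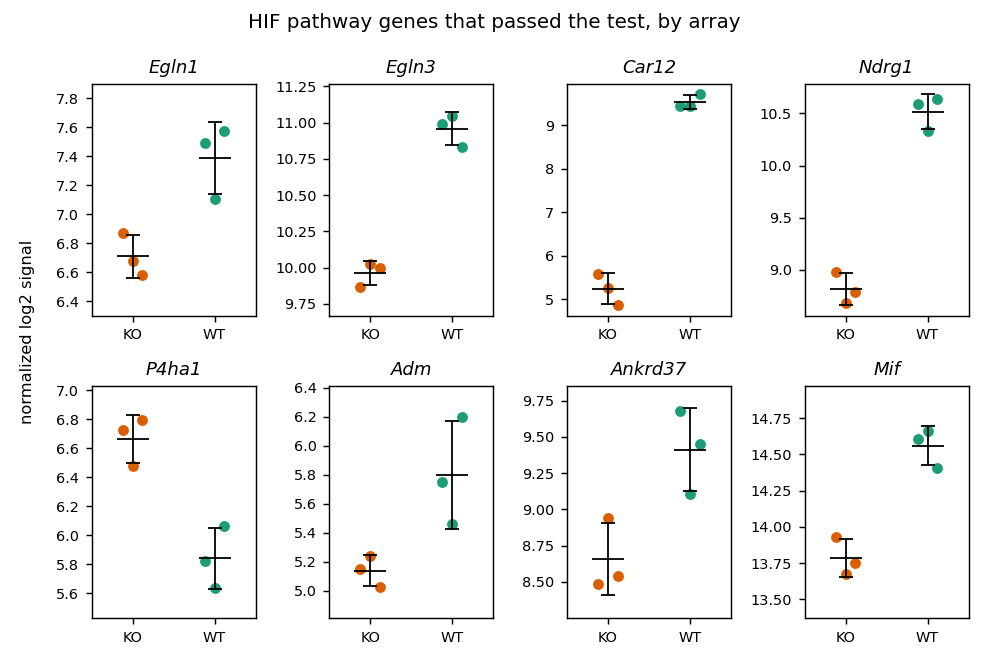
Normalized log2 signal (vertical axes) of the 8 HIF pathway and target genes that passed the test, with KO arrays left and WT arrays right in each panel. Points are single arrays, and bars show the mean and SD of 3. P4ha1 is higher in KO and the other 7 genes are lower, and Car12 in KO sits between 4.86 and 5.57.

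Of the 69 member probes, 52 passed the filter on dim probes. Tested among all 19082 kept probes, 25 of the 52 fell and 6 rose, which is 48.1% and 11.5%, beside 16.5% and 15.7% of all kept probes. For 17 members there were several kept probes. In 14 of the 17 all probes had the same sign, and in the other 3 (Pfkl, P4ha1 and Kdm3a) the signs differed. From triose phosphate isomerase to pyruvate kinase all 11 kept probes were negative, and 9 of them passed. These probes read the same 6 genes on the same arrays, and the stretch was chosen after the values were seen. The single Gapdh probe did not pass in the fit over all kept probes (limma, adjusted p = 0.0551).

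**Figure D5:**
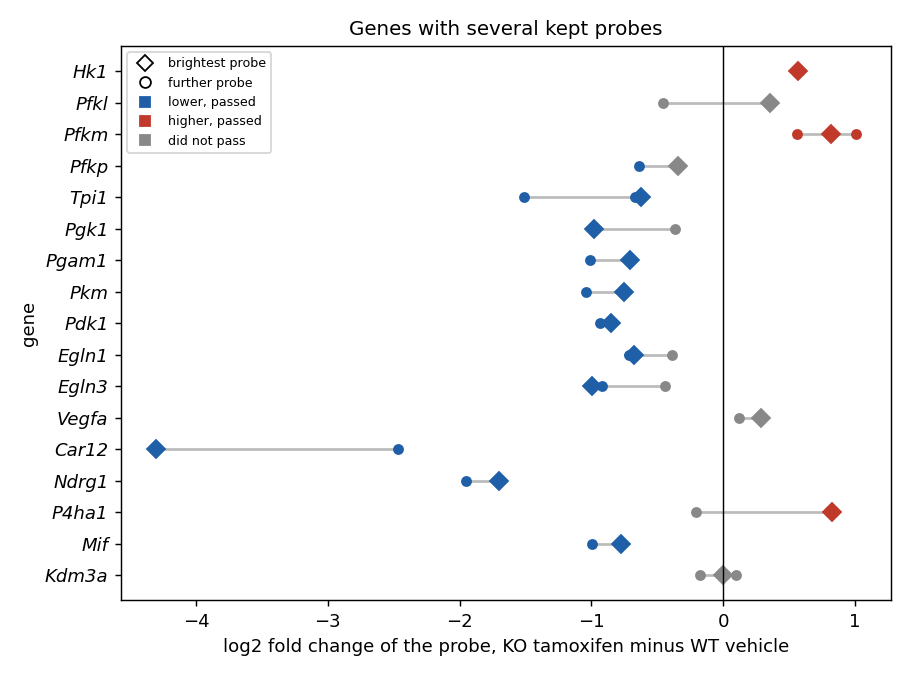
Log2 fold change (horizontal axis) of each kept probe of the 17 members with several, with the brightest probe as a diamond and further probes as circles. Probes of Pfkl and P4ha1 lie on both sides of 0. The Car12 probe drawn at -2.47 was not detected on any KO array, so its place is not an exact difference.

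Further genes of the same pathways were counted from lists of textbook genes. Of 20 tested glycolysis and pyruvate genes outside the members, 5 fell and 4 rose (25% and 20%), at a median of -0.10. Over all genes tested, 17.1% fell and 19.7% rose, so the share that rose was that of all genes. Pgm1, a phosphoglucomutase that links glycogen to glycolysis, fell by 0.91 ± 0.13 (SE, adjusted p = 0.00193). Pklr, the pyruvate kinase of liver and red cells, read 7.54, 7.55 and 7.41 on KO arrays and 6.63, 6.60 and 6.51 on WT arrays and rose by 0.92 ± 0.12 (adjusted p = 0.00123), opposite to Pkm. The glucose carriers Slc2a6 and Slc2a4 rose by 0.81 ± 0.26 and 0.66 ± 0.21. Slc2a6 lost its call on leaving out any 1 array except KO replicate 1 (adjusted p 0.0812 to 0.131). Slc2a6 was also not called without background correction (0.36, adjusted p = 0.0557), with the deposited log2 table (adjusted p = 0.0559) or with no filter on dim probes (adjusted p = 0.0962). Slc2a4 lost its call with no filter (adjusted p = 0.0744), was at 0.37 without background correction, and lost its call on leaving out any 1 array except KO replicate 1 and WT replicate 2 (adjusted p 0.0795 to 0.123).

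Of 27 tested further hypoxia genes, 2 fell and 6 rose (7.41% and 22.2%), at a median of 0.09. The shares over all genes tested were 17.1% and 19.7%, so the share that rose was near that of all genes. This list did not show the mostly downward counts of the 12 tested HIF members. Angptl4, an inhibitor of lipoprotein lipase induced by HIF and PPAR factors, read 9.79, 8.80 and 9.24 on KO arrays and 10.86, 10.92 and 10.62 on WT arrays and fell by 1.52 ± 0.23 (SE, adjusted p = 0.00213). Hilpda, a lipid droplet protein gene induced by hypoxia, read 10.12, 9.68 and 9.89 on KO arrays and 11.01, 10.99 and 10.95 on WT arrays and fell by 1.09 ± 0.14 (adjusted p = 0.00128). Rora, a nuclear receptor gene, rose by 1.26 ± 0.20 (adjusted p = 0.00244) and Hif3a, a further HIF alpha subunit gene, by 1.05 ± 0.18 (adjusted p = 0.00294). Without background correction Rora was at 0.59, Hif3a at 0.68 and Pklr, from the list above, at 0.52. The difference between the member list and the further list was not tested.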

How the data were processed

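Per the file headers, the deposited raw table gives an intensity and a detection p-value for each probe on 6 bead arrays, 3 KO and 3 WT. Intensities were not normalized between arrays, since their medians run from 121.8 to 132.4. A deposited log2 table differs by at most 0.0109 from the log2 of the quantile-normalized intensities and served as an alternative. The scanner software is not given in the sources used here. All columns of values were used, and 0 were left aside.

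Intensities were processed by neqc in limma 3.58.1 (R 4.3.3), with normexp background correction from controls inferred from the detection p-values, an offset of 16, quantile normalization and log2. Folds of dim genes depend on this correction. Probes detected at p under 0.05 on at least 3 arrays were kept (19082). In the platform annotation 34885 probes have a single symbol, 10378 have none and 18 have more. Symbols were updated through a RefSeq table (GRCm38.p6), and the brightest kept probe stood for a gene.

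All 10209 genes were fitted with lmFit and eBayes, group being the only term, with 2-sided p-values adjusted by Benjamini-Hochberg at 0.05. Adjusted p-values of further probes come from a fit over all kept probes. The p-values measure the spread between these mice. A member was described in full if it passed, if its probes disagreed, or if it was undetected in a group. Some other members were given too, chosen after their values were seen. From each further list up to 4 called genes were named. Pgam2 and Egln2, which were not called, were added after the values were seen. The members and lists were chosen with earlier results of these data known. The fit was tested on simulated data. Alternatives were other background corrections, median scaling, the deposited log2 table, other filters, the mean of probes, a replicate block, trend and robust eBayes, array weights, and leaving out each array.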

Additional observations from a re-analysis of the deposited data

How the results depend on the processing

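Of 477 values of the 30 tested members under the alternatives, 440 kept their side of the threshold, 29 lost the call and 8 gained it. A called member turned sign in 0 of them, and 4 values of members that were not called did (Pfkl, at -0.05 with the mean of its probes, and Kdm3a on leaving out single arrays). Of the 18 called members, 12 kept the call under every alternative run, and 6 (Hk1, Gapdh, Eno3, P4ha1, Adm and Ankrd37) lost it under at least 1. Of the members not called, Pfkp passed under 1 alternative and Bnip3l under 7. Of the 144 values of Myc and the called genes named from the further lists, 131 kept their call and 13, all of Slc2a6 or Slc2a4, lost it.

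The count of glycolytic genes that rose was 2, and 1 when scaled to a common median or, as a range, 1 to 2 with single arrays left out. The count of other HIF genes that rose was 1. It was 2 with normexp with no inferred controls, no background correction, the deposited log2 table, the replicate block, trend and robust eBayes or array weights, 0 with the mean of probes, and 1 to 2 with single arrays left out. The glycolytic median of -0.34 was -0.26 with normexp with no inferred controls, -0.25 with no background correction, -0.25 with the deposited log2 table and -0.38 to -0.29 with single arrays left out. The median of the other HIF genes, -0.67, was -0.41, -0.31 and -0.31 under the same 3 settings, -0.43 with no filter, -0.44 when detection on all 6 arrays was required (10 genes) and -0.77 to -0.53 with single arrays left out. Over all genes, 1748 fell, and 1108 to 1835 with single arrays left out (1120 without WT replicate 1, 1108 without WT replicate 3). Causes were not tested.

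The replicate numbers were not treated as pairs. Deviations from the group means correlated at 0.17, 0.12 and -0.08 for numbers 1, 2 and 3 across genes, and KO replicate 3 correlated more with WT replicate 2, at 0.21. With the replicate block 6 glycolytic genes fell and 2 rose (Gapdh, at adjusted p = 0.0719, and Eno3, at 0.0558, were not called), 7 other HIF genes fell and 2 rose, and 1697 of all genes fell and 2016 rose.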
